A study of Homo sapiens with 12 samples.

Results

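The 10 genes described here are outputs and feedback inhibitors of the ERK pathway, namely DUSP4, DUSP5, DUSP6, SPRY2, SPRY4, SPRED1, SPRED2, ETV4, ETV5 and PHLDA1. They were taken by gene symbol from a table of counts for 57500 gene IDs, and all 10 were found. The 10 were chosen with earlier results of these data known, so their shares below are no test of them as a set. The RNA of 3 established human cancer cell lines was sequenced in 12 libraries, 3 biological replicates for each of 4 groups. SW480 came from a primary colorectal cancer and SW620 from a metastasis in the same patient, and neither was treated. PEO4 is an ovarian cancer line, kept in standard medium (control) or given 10 ng/mL of recombinant human TGF-β for 6 days. PEO4 grew in RPMI 1640 and the SW lines in DMEM, each with 10% FBS, so levels were not tested between PEO4 and the SW lines. Each line stands for 1 tumor, and p-values measure the spread between these libraries. The labels do not say what separates the biological replicates.

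In the ERK pathway, receptor tyrosine kinases load RAS with GTP, RAS activates RAF kinases, and these activate MEK and then ERK. Active ERK releases the repressor CIC from DNA and acts on ETS transcription factors, and the genes that follow include inhibitors of the pathway itself. DUSP phosphatases remove the activating phosphates from ERK, Sprouty proteins (SPRY) act between receptor and RAS, and SPRED proteins bring the RAS inhibitor neurofibromin to the membrane. Levels of these mRNAs are widely read as a measure of ERK output. TGF-β is known to signal through SMAD proteins and also through ERK.

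RefSeq promoter windows (GRCh38.p14, from 250 bases before to 50 after an annotated start of a gene) were matched by symbol for 6 of the 10 genes, in 9 windows. Those genes were DUSP6, SPRY2, SPRY4, SPRED1, SPRED2 and PHLDA1. Each window was searched on both strands for the CIC octamers TGAATGAA, TGAATGGA, TCAATGAA and TCAATGGA, the ETS sequences CCGGAAGT and CAGGAAGT, and the AP-1 sequence TGAGTCA. The windows of DUSP6, SPRY4 and SPRY2 are shown because DUSP6 held the only CIC octamers among the 9 windows, and because SPRY4 and SPRY2 went in opposite directions between the SW lines. Capitals mark matches, and bases run 5′ to 3′ on the gene's strand, which is the minus strand for all 3.
DUSP6, chr12:89352452-89352751: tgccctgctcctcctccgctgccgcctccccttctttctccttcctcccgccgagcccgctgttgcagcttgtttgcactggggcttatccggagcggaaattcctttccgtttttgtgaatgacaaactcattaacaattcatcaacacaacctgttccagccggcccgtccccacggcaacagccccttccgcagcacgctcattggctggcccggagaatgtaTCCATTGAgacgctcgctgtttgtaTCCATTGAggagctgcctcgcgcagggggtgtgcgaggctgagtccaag
SPRY4, chr5:142324198-142324497: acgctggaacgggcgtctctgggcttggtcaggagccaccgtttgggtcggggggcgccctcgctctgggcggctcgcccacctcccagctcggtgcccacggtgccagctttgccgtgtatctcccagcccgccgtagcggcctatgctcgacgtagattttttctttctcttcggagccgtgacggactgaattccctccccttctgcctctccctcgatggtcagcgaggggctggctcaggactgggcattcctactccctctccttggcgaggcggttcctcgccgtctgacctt
SPRY2, chr13:80341077-80341376: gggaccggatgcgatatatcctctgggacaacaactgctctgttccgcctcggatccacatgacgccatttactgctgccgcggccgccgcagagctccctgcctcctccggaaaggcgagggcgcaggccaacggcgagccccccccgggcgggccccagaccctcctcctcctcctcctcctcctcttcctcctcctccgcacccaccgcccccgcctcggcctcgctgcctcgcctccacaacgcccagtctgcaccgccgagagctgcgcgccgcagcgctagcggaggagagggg
The DUSP6 window held TCCATTGA, which is TCAATGGA on the other strand, at bases 227 to 234 and again at bases 252 to 259 of the 300. A CIC octamer was found in 3.77% of all 35116 windows, and 0.327% held at least 2. No ETS sequence was found in the 9 windows, against 7.02% of all windows. One window of SPRED2, at an internal start, held the AP-1 sequence, which 4.95% of all windows held. These matches describe letters in a window and not binding.

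Library totals ran from 14531420 to 22028956 counts. The replicate 2 libraries of SW480 and SW620 had the lowest totals (14712953 and 14531420 counts) and the smallest share of counts in protein-coding genes of their line, 93.9% and 92.7%. These libraries also held the lowest value of 10 of the 10 genes in SW480 and of 9 of 10 in SW620, on a scale that corrects for library total, so results between the SW lines are also given without both. Replicate 3 held the highest value of 7 of the 10 genes in SW480 and of 9 in SW620. The share of all genes with these orders was not counted. SW620 replicate 3 held reads that resembled PEO4. Over 43 genes with at least 10 CPM (edgeR's unit of counts relative to the library total) in every PEO4 library and at most 3 counts in the other SW libraries, its level was 1.30% of that in PEO4, against 0.290% to 0.528% over 4 or 5 such genes in the other SW libraries. Reads at that share would make up 14.8% of its DUSP5 counts and at most 1.25% of those of any of the other 9 genes. Among colorectal markers, CDX2 averaged 18.7 CPM (SW480) and 18.1 CPM (SW620), with no PEO4 library above 3 counts, but CDX1 and KRT20 were at most 1.24 CPM in any SW library. Of 8 ovarian markers, 6 averaged more in PEO4 control than in either SW line, among them PAX8 (556 CPM) and WT1 (216 CPM). SOX17 (1.60 CPM in PEO4 control, 2.56 CPM in SW480 and 2.99 CPM in SW620) did not, nor did FOLR1 (12.6 CPM in PEO4 control against 16.4 CPM in SW620). With TGF-β 4 of the 8 were called lower, beside 0.991% of all genes. The 10 markers of fibroblasts, leukocytes and endothelium summed to 5.49 to 6.61 CPM in SW480, 12.6 to 25.6 CPM in SW620, 7.25 to 8.67 CPM in PEO4 control and 6.84 to 7.83 CPM with TGF-β, and their part in the results was not tested.

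Across the 4 groups, 7 of the 10 genes had higher mean levels in both SW lines than in either PEO4 group with no overlap of libraries, as did 17.9% of the 22820 genes tested in at least 1 comparison. These were DUSP4, DUSP6, SPRY2, SPRY4, ETV4, ETV5 and PHLDA1. DUSP5 was the reverse, with its lowest PEO4 library above every SW library, as for 21.8% of all genes. SPRED1 and SPRED2 had libraries that overlapped between the SW lines and PEO4. The mean of SPRED1 was 1.81 times as high in PEO4 control as in SW480. In these bulk samples, fewer cells with a transcript and less transcript per cell cannot be told apart. The widest span belonged to SPRY4, whose mean was 30.9 times as high in SW480 as in PEO4 with TGF-β, and the narrowest to SPRED2 at 1.30 times.

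**Figure D1:**
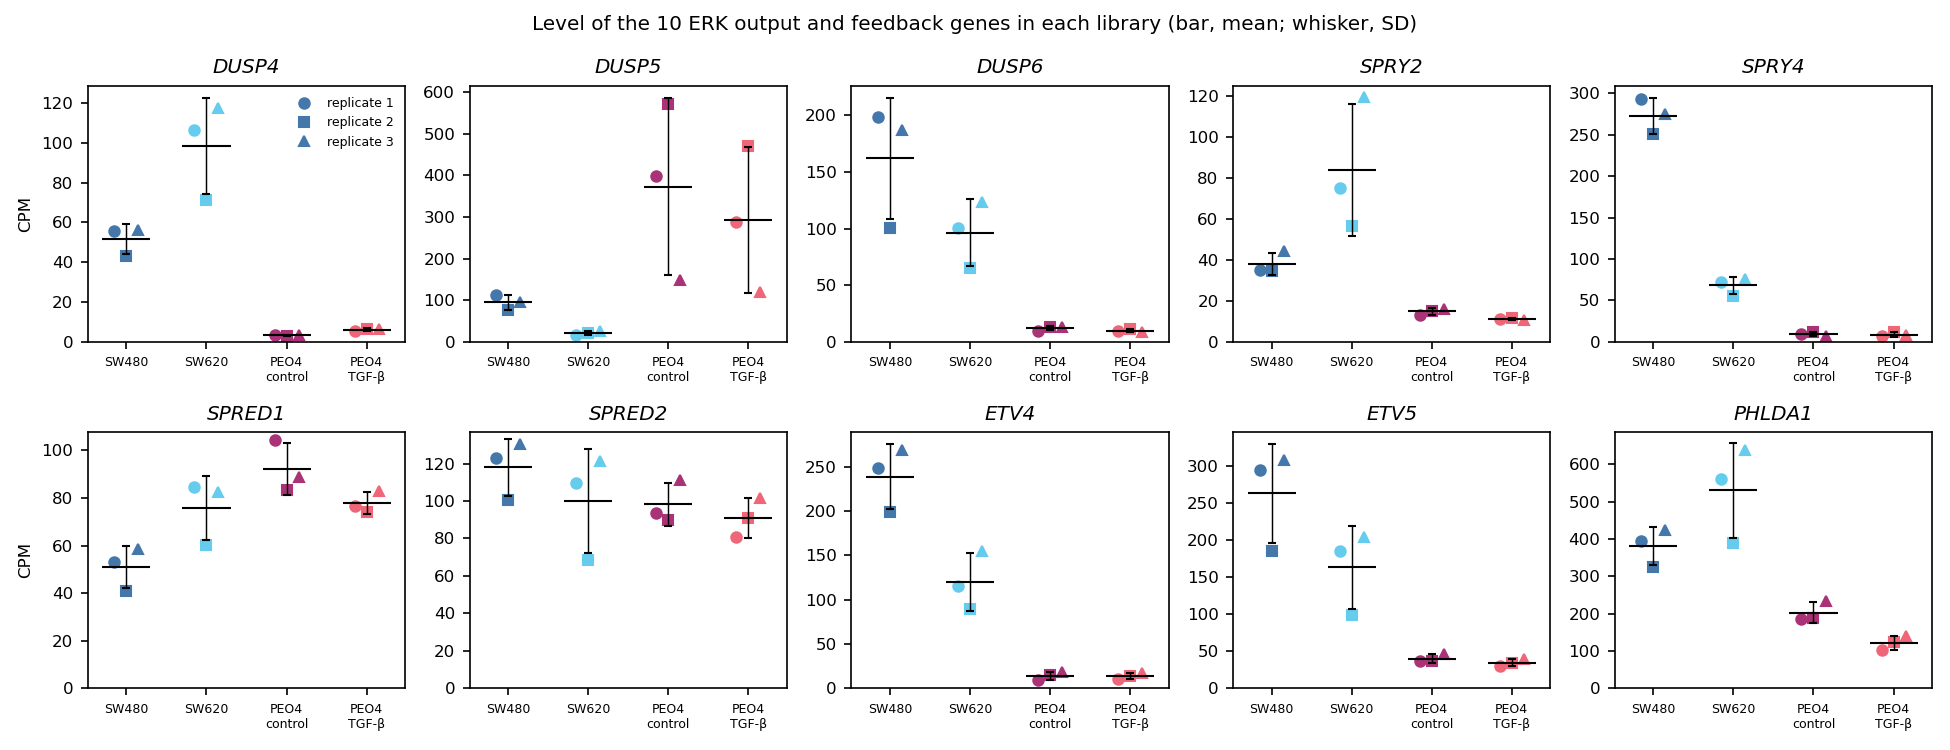
CPM (vertical axis, from 0) of each of the 10 genes in the 12 libraries; symbols mark replicates, bars the mean and whiskers the SD of 3 libraries. DUSP5 is highest in PEO4 control (373 CPM) and lowest in SW620 (21.8 CPM), while SPRY4 reaches 273 CPM in SW480 and averages 9.55 CPM in PEO4 control (with TGF-β, 8.83 CPM).

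Per kilobase of annotated exon, which allows genes to be compared, the leading gene differed by line. In PEO4 control DUSP5 stood at 143 ± 81.5 CPM per kb, and the next was PHLDA1 at 25.1 ± 3.49 CPM per kb (SD, n = 3). In SW480 the ETS factor ETV4 led with 66.3 ± 10.1 CPM per kb, and DUSP5 was the fifth of the 10 at 36.4 ± 7.08 CPM per kb. In SW620 PHLDA1 led with 65.7 ± 15.8 CPM per kb and DUSP5 was last at 8.34 ± 1.93 CPM per kb. DUSP4 was last in both PEO4 groups, at 0.462 ± 0.0427 CPM per kb in control.

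Between the SW lines, 6 of the 10 genes were called at an adjusted p under 0.05 by the quasi-likelihood test of edgeR, where 30.5% of the 20941 genes tested were. DUSP4, SPRY2 and SPRED1 were higher in SW620, and DUSP5, SPRY4 and ETV4 were lower, against 13.5% of all genes called higher and 17.0% called lower. A change of at least 2-fold was called for 3 of them (DUSP5, SPRY2 and SPRY4), as for 21.0% of all genes. The genes therefore split within families, with a phosphatase and a Sprouty gene on each side. The median log2 fold change of the 10 was -0.44 and that of all genes tested 0.03, while the median size of change was 0.84 for the 10 and 0.53 for all. Libraries of the lines did not overlap for the same 6 of 10 genes, as for 44.2% of all genes. Without the replicate 2 libraries of both lines (an alternative added once the values had been seen), 9 of 10 passed, with 36.8% of all genes.

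Among the phosphatases, DUSP5 fell most. DUSP5, a nuclear phosphatase of ERK (ENSG00000138166, chromosome 10, 110497838 to 110511544, GRCh38), had 113, 76.2 and 95.8 CPM in SW480 replicates 1, 2 and 3 and 17.0, 21.4 and 27.0 CPM in those of SW620. Its lowest SW480 library was above its highest SW620 library, which is the one with PEO4-like reads. The change was 4.27-fold lower in SW620, a log2 fold change of -2.10 ± 0.22 (SE; edgeR adjusted p 0.000117), and -2.26 without SW620 replicate 3.

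DUSP4, which acts on ERK and on other MAP kinases in the nucleus (ENSG00000120875, chromosome 8, 29333064 to 29350668), moved the other way. It had 55.9, 42.9 and 56.3 CPM in SW480 and 106, 71.1 and 118 CPM in SW620. The SW620 libraries were all higher, with replicate 2 the lowest in each line. This gave a log2 fold change of 0.95 ± 0.20 (SE, n = 3; edgeR adjusted p 0.00663).

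DUSP6, the cytoplasmic phosphatase specific to ERK (ENSG00000139318, chromosome 12, 89347232 to 89353271), did not pass. It had 198, 101 and 187 CPM in SW480 and 100.4, 65.1 and 124 CPM in SW620. SW480 replicate 2 lay among the SW620 libraries, so the lines overlapped. The log2 fold change was -0.73 ± 0.29 (SE; edgeR adjusted p 0.0889). It passed without SW480 replicate 2 (-0.98, adjusted p 0.0218), without SW620 replicate 3 (-0.93, 0.0406) and without the replicate 2 libraries of both lines (-0.77, 0.00546), and also with total-count scaling (0.0434), without the count filter (0.0405) and with all 12 libraries in 1 model (0.0243). In GENCODE 29 an antisense gene overlaps 40.5% of the DUSP6 exon bases, and strand use in counting is not given in the sources used here.

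The Sprouty genes separated the lines in opposite directions. SPRY4 (ENSG00000187678, chromosome 5, 142310427 to 142326455) had 293, 250.3 and 275 CPM in SW480 and 72.5, 55.8 and 75.7 CPM in SW620. Every SW620 library was far below the lowest SW480 library, and SPRY4 had the smallest adjusted p of the 10 genes. It was 3.94-fold lower, a log2 fold change of -1.98 ± 0.17 (SE; edgeR adjusted p 5.06e-05). SPRY2 (ENSG00000136158, chromosome 13, 80335976 to 80340951) had 34.9, 34.8 and 44.5 CPM in SW480 and 75.4, 56.8 and 120 CPM in SW620. All SW620 libraries were above SW480, but they varied widely, with replicate 3 far above replicate 2. The fitted log2 change was 1.16 ± 0.25 (SE, n = 3; adjusted p 0.00699 in edgeR's test).

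SPRED1 was higher in SW620 by less than any of the other 5 called genes moved, and SPRED2 did not pass. SPRED1 (ENSG00000166068, chromosome 15, 38252326 to 38357249) had 53.2, 41.1 and 58.4 CPM in SW480 and 84.5, 60.2 and 82.7 CPM in SW620. The lines were apart by a narrow margin, since SW620 replicate 2 nearly met SW480 replicate 3. The log2 fold change of 0.60 ± 0.18 (SE) passed (edgeR adjusted p 0.0363), and the call was lost with DESeq2 (0.0768), without the count filter (0.064), with the correction for GC content (0.0563) and in 5 of 6 fits that left out 1 library. Those adjusted p values were 0.107 without SW480 replicate 1, 0.129 without SW480 replicate 2, 0.0803 without SW480 replicate 3, 0.14 without SW620 replicate 1 and 0.068 without SW620 replicate 3. The authors' deposited table does call SPRED1, at an adjusted p of 0.0231, unlike the DESeq2 fit made here. SPRED2 (ENSG00000198369, chromosome 2, 65310851 to 65432637) averaged 118 ± 15.4 CPM in SW480 against 99.9 ± 27.7 CPM in SW620 and did not pass (log2 fold change -0.22 ± 0.21, adjusted p 0.493), and it was the one gene of the 10 that passed neither here nor without the replicate 2 libraries.

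The ETS factors ETV4 and ETV5, which bind DNA downstream of ERK, had fitted values lower in SW620. ETV4 (ENSG00000175832, chromosome 17, 43527844 to 43579620) had 249, 199 and 269.5 CPM in SW480 and 116, 89.3 and 155 CPM in SW620, with no overlap. Its log2 fold change was -0.97 ± 0.22 (SE; edgeR adjusted p 0.00838), which became 0.0522 without SW480 replicate 1, 0.0512 without SW480 replicate 3 and 0.0676 without SW620 replicate 1. ETV5 (ENSG00000244405, chromosome 3, 186046308 to 186110318) had 295, 186 and 309 CPM in SW480 and 186, 98.8 and 204 CPM in SW620. SW480 replicate 2 sat level with SW620 replicate 1, and the log2 fold change of -0.67 ± 0.28 did not pass (adjusted p 0.111). It passed without the replicate 2 libraries of both lines (-0.61, 0.0115) and with all 12 libraries in 1 model (0.0354).

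PHLDA1, a pleckstrin homology-like gene induced by growth factors (ENSG00000139289, chromosome 12, 76025447 to 76033932), had 395, 326 and 424 CPM in SW480 and 561, 390.2 and 639.7 CPM in SW620. SW620 replicate 2 fell within the SW480 range. At 0.50 ± 0.21 its log2 fold change did not pass (adjusted p 0.115 in edgeR's test), and it passed without SW620 replicate 2 (0.71, adjusted p 0.0164) and without both replicate 2 libraries (0.57, 0.0217), and with total-count scaling (0.0217). Antisense genes overlap 16.5% of its exon bases.

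**Figure D2:**
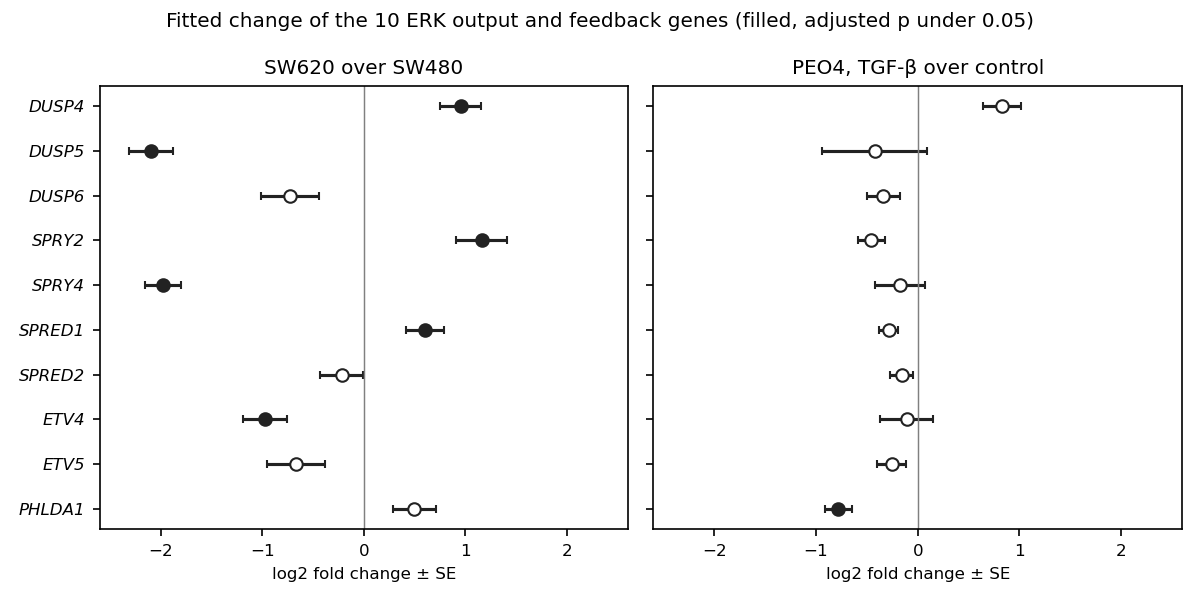
Fitted log2 fold change with its SE (horizontal axis) of the 10 genes between the SW lines (left) and in PEO4 with TGF-β over control (right); filled points had an adjusted p under 0.05. Between the SW lines 3 genes passed in each direction, from -2.10 for DUSP5 to 1.16 for SPRY2, and in PEO4 PHLDA1 alone passed at -0.78.

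The rest of the pathway was read from 9 lists of 84 genes, of which 80 could be tested between the SW lines. Of these, 32 passed (40.0%), 13 higher and 19 lower in SW620, beside 30.5% of all genes. Because the lists were chosen with earlier results of these data known, this share is no test of the pathway. At the level of receptors 6 of 10 passed, 3 in each direction. EGFR, the receptor of EGF, had 181, 102 and 141 CPM in SW480 and 1.25, 0.671 and 1.61 CPM in SW620, with 13 to 34 counts per SW620 library. It was 117-fold lower, a log2 fold change of -6.87 ± 0.34 (SE; edgeR adjusted p 3.21e-06), and PEO4-like reads at 1.30% would exceed its count in SW620 replicate 3. FGFR2 had 210 to 425 counts in SW480 libraries and 2, 1 and 17 counts in SW620 replicates 1, 2 and 3, of which PEO4-like reads would make up 83.7% in replicate 3. Its log2 fold change was -5.74 and, without SW620 replicate 3, -7.74. MET, the receptor of hepatocyte growth factor, averaged 23.6 ± 2.32 CPM in SW480 and rose in SW620 to 189 ± 44.5 CPM (SD, n = 3; log2 fold change 3.02). Of 5 tested ligands of the EGF family 0 passed in edgeR's test and 0 in DESeq2, with 1 at an unadjusted p under 0.05.

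Of 13 core genes of the cascade 2 passed, beside 30.5% of all genes. They were the scaffold KSR1, which holds RAF and MEK together, at 1.42 ± 0.22 and HRAS at -0.53 ± 0.17 (log2, SE), and HRAS kept its call without SW620 replicate 3 (edgeR adjusted p 0.0169) but not without any other library (0.0588 to 0.234). It was also lost with DESeq2 (0.123), without the count filter (0.103), with the GC correction (0.118) and without both replicate 2 libraries (0.0504). The kinase gene BRAF (log2 fold change 0.40, adjusted p 0.0829) and MAPK3, the gene of ERK1 (-0.40, 0.226), did not pass in edgeR's test. BRAF passed without SW620 replicate 2 (adjusted p 0.0337) and MAPK3 without SW620 replicate 3 (-0.67, 0.023). Of 12 adaptors and RAS regulators 4 passed, with the adaptor GAB1 (-1.85), the RAS exchange factor RASGRP1 (-1.42) and the RAS GTPase activator RASA2 (-0.95) lower and 1 gene (RASA1) higher.

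Other feedback and target genes also went both ways. The counts below stand beside 30.5% of all genes called, 13.5% higher and 17.0% lower. The lists are short, and the counts are no test of them. Of 6 tested genes on the list of feedback inhibitors 5 passed. Among them were IL17RD, which inhibits FGF receptor signaling, at -2.16 ± 0.22, and ERRFI1, an inhibitor of EGFR, at 1.25 ± 0.26 (log2, SE). PHLDA3, a relative of PHLDA1 known as a target of p53, passed at -4.16 ± 0.20. Whether PHLDA3 acts as a feedback inhibitor of ERK was not tested. PEO4-like reads would make up 28.7% of the RASGRP1 counts in SW620 replicate 3, 21.7% of those of PHLDA3 and 13% of those of GAB1. SPRY1 was the 1 of 3 remaining Sprouty and SPRED genes to pass, at 2.06 ± 0.35. Of 7 remaining DUSP genes 2 passed, DUSP1 at 1.42 and DUSP16 at -0.55. DUSP1 did not pass without SW480 replicate 1, 2 or 3 (edgeR adjusted p 0.0952, 0.0547 and 0.0636), and was lowest, at 0.74, without SW620 replicate 3. DUSP16 did not pass without SW480 replicate 1 (edgeR adjusted p 0.145), SW480 replicate 3 (0.0995) or SW620 replicate 1 (0.0836), nor with DESeq2 (0.0614) or without the count filter (0.0669). Among 16 further ERK target genes 7 passed, 2 higher and 5 lower. The cytokine LIF (-3.12 ± 0.18), cyclin D1 (CCND1, -3.07 ± 0.31) and the receptor EPHA4 (-2.82 ± 0.17) fell most. CCND1 had 4053, 2209 and 3596 CPM in SW480 and 443, 279 and 432 CPM in SW620. Of 8 ETS and CIC factors 5 passed, with ELK3 (-2.17 ± 0.16) and ETS1 (-0.98 ± 0.22) lower and ETS2 (1.36 ± 0.21) higher. ETS1 did not pass without SW480 replicate 1 (adjusted p 0.0597) or without SW620 replicate 1 (0.0732).

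**Figure D3:**
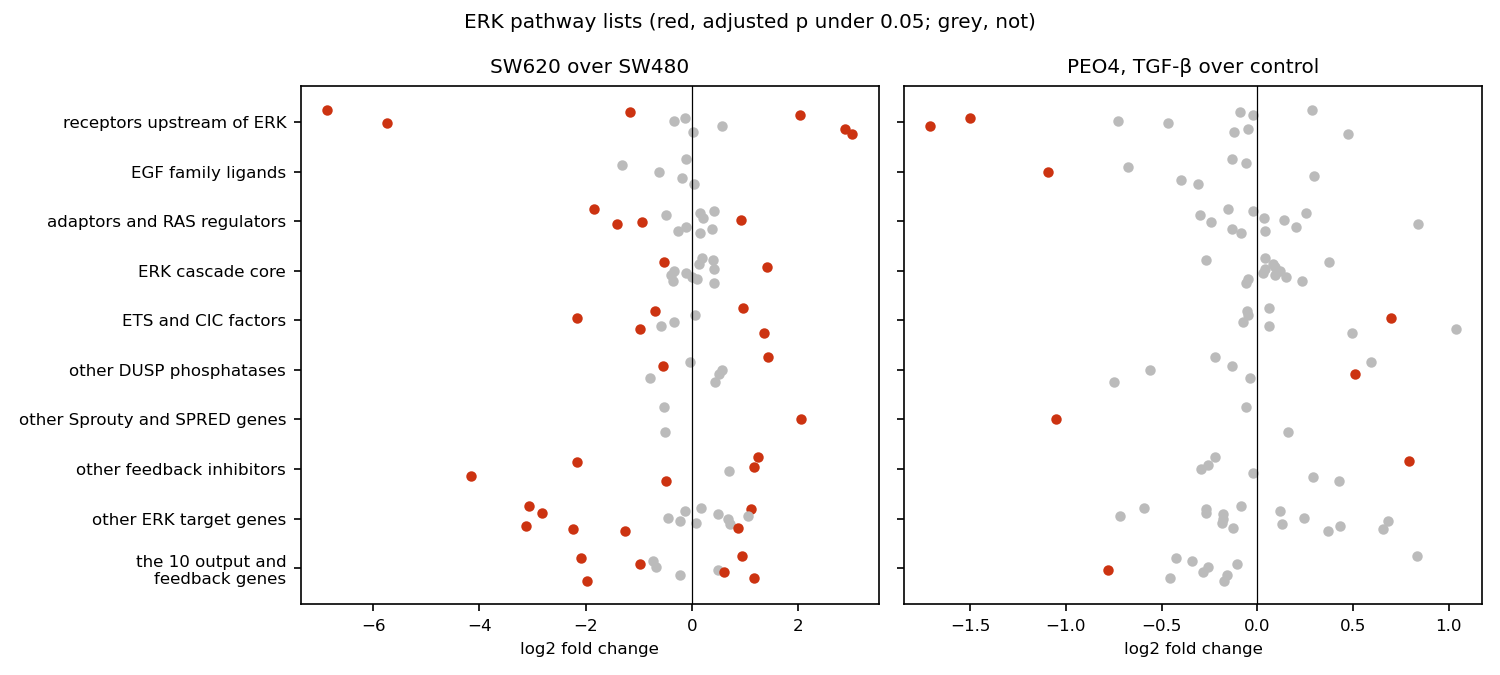
Log2 fold change (horizontal axis, with a different range in each panel) of every tested gene of the pathway lists and of the 10 output and feedback genes; 1 point is 1 gene, red where the adjusted p was under 0.05. Between the SW lines the receptor list reaches from -6.87 (EGFR) to 3.02 (MET), while 11 of 13 core cascade genes are grey in the left panel and 13 of 13 in the right panel.

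In PEO4, 6 days of TGF-β left most of the 10 genes within the spread of the replicates. PHLDA1 alone was called at an adjusted p under 0.05 by edgeR, where 2.26% of 19064 genes tested were. It was lower with TGF-β, as 0.991% of all genes were. Of the 10 genes 0 were called higher by edgeR, beside 1.27% of all genes, while DESeq2 called 1 (DUSP4), the same gene that was higher at an unadjusted p under 0.05. A change of at least 2-fold was called for 1.05% of all genes, and the change of PHLDA1 was smaller than that. Fitted values were below 0 for 9 of the 10 genes, with DUSP4 the exception, and for 52.3% of all genes, and the medians were -0.27 for the 10 and -0.02 for all. Control and treated libraries were fully apart for 4 of 10 genes, DUSP4, SPRY2, SPRED1 and PHLDA1, beside 21.5% of all genes. With a block on the replicate number 5 of the 10 were called, these 4 and DUSP5, beside 11% of all genes.

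PHLDA1 had 184, 188 and 235 CPM in control and 102, 125 and 139 CPM with TGF-β. Every treated library was below every control library. Its log2 fold change was -0.78 ± 0.13 (SE; edgeR adjusted p 0.0216), or 1.72-fold lower. The call was lost in 4 of 6 fits with 1 library removed (edgeR adjusted p 0.11 without control replicate 2, 0.0518 without control replicate 3, 0.082 without TGF-β replicate 1 and 0.104 without TGF-β replicate 2), and also with all 12 libraries in 1 model (0.102). Its fitted values over all alternatives stayed between -0.90 and -0.66.

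DUSP4 was the one gene of the 10 with a higher fitted value. It had 3.64, 3.02 and 3.39 CPM in control, from 53 to 65 counts, and 5.44, 6.36 and 6.69 CPM with TGF-β, from 98 to 134 counts. The groups did not overlap at this low level. The log2 fold change of 0.83 ± 0.18 (SE) missed the threshold narrowly (edgeR adjusted p 0.0551). It passed with DESeq2 (0.024) and without the count filter (0.0162), and the authors' deposited table gives an adjusted p of 0.0192.

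DUSP5 had the widest spread. It had 399, 572 and 148 CPM in control replicates 1, 2 and 3 and 288, 471 and 121 CPM in those with TGF-β. Replicate 3 was the lowest and replicate 2 the highest in both groups, which overlapped over most of their range. Its log2 fold change of -0.42 ± 0.52 (edgeR adjusted p 0.733) ran from -0.90 to 0.07 over the fits that left out 1 library. Each treated library was below the control library of the same number. With a block on the replicate number DUSP5 passed (edgeR adjusted p 0.00298), so its call depends on whether the numbers pair the libraries, which was not tested. DUSP6 had 9.77, 12.9 and 13.2 CPM in control and 9.55, 11.0 and 8.94 CPM with TGF-β, and its log2 fold change of -0.34 ± 0.16 did not pass (adjusted p 0.341).

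SPRY2 was lower with TGF-β in all libraries but did not pass. It had 13.2, 15.3 and 16.1 CPM in control and 11.3, 11.8 and 10.6 CPM with TGF-β, a log2 fold change of -0.46 ± 0.13 (SE; edgeR adjusted p 0.124, and 0.0445 without control replicate 1). SPRED1 had 104, 83.5 and 88.6 CPM in control and 76.7, 74.1 and 83.1 CPM with TGF-β (log2 fold change -0.29 ± 0.09, adjusted p 0.171). The other 4 genes overlapped between the groups, with adjusted p from 0.398 to 0.878. SPRY4 averaged 9.55 CPM in control, with TGF-β 8.83 CPM. SPRED2 ran from 89.8 to 111 CPM in control and from 80.5 to 102 CPM with TGF-β. The ETS factors were lowest in replicate 1 and highest in replicate 3 of both groups, with ETV4 at 9.54 to 18.4 CPM in control and 10.1 to 17.2 CPM with TGF-β, and ETV5 at 36.7 to 46.9 CPM and 29.8 to 40.2 CPM. The log2 fold changes of these 4 were -0.17 ± 0.25 for SPRY4, -0.16 ± 0.11 for SPRED2, -0.11 ± 0.26 for ETV4 and -0.26 ± 0.14 for ETV5 (SE, n = 3).

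Of the 83 pathway genes tested in PEO4, 7 passed (8.43%), 3 higher and 4 lower with TGF-β, beside 2.26% of all genes, 1.27% higher and 0.991% lower. The lists were chosen with earlier results of these data known, so their share is no test of the pathway. FGFR3, a receptor of fibroblast growth factors, averaged 51.1 ± 12.4 CPM in control and fell to 16.2 ± 2.43 CPM (SD, n = 3; log2 fold change -1.71 ± 0.18, edgeR adjusted p 0.00233). SPRY1 fell from 18.9 ± 1.84 to 9.48 ± 0.120 CPM (-1.05 ± 0.13, adjusted p 0.00607). Both kept their calls in 6 of 6 fits that left out 1 library, and SPRY1 did not pass with all 12 libraries in 1 model (0.144). The other calls were the EGF receptor family member ERBB4 (-1.50 ± 0.32) and the ligand EREG (-1.09 ± 0.22), both lower, and DUSP7 (0.51 ± 0.10), IL17RD (0.79 ± 0.16) and ELK3 (0.70 ± 0.14), all higher, with adjusted p from 0.0355 to 0.0496 in edgeR's test. All 5 were kept without control replicate 1, and EREG and DUSP7 also without control replicate 3, but without any other library they did not pass (edgeR adjusted p 0.0668 to 0.224). With all 12 libraries in 1 model none of the 5 passed (0.0554 for ELK3 to 0.431 for DUSP7). DUSP7 was also lost with total-count scaling (0.0644), and ERBB4 with RLE scaling (0.0501), with at least 10 counts in every library (0.05) and with the GC correction (0.0659). Of the ERK cascade core 0 of 13 passed in edgeR's test and 0 in DESeq2, with 2 at an unadjusted p under 0.05. BRAF (-0.27), MAPK3 (0.09) and EGFR (0.28) had log2 fold changes with adjusted p from 0.143 to 0.677. Of 12 adaptors and RAS regulators 0 passed in edgeR's test and 0 in DESeq2, with 4 at an unadjusted p under 0.05, and of 16 further ERK target genes 0 passed in edgeR's test and 1 in DESeq2, with 4 at an unadjusted p under 0.05.

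The authors' deposited tables call 6 of the 10 genes between the SW lines and 2 in PEO4 at an adjusted p of 0.05, and the call and direction were the same as here for 10 of 10 and 9 of 10, with DUSP4 in PEO4 the difference.

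The genes whose levels followed DUSP6 most closely were ranked by the root mean square difference of log2 CPM over the 12 libraries, after each gene was centred on its mean, among 17184 other genes tested in both comparisons. ETV4 was the fourth, at 0.291. The other 4 of the first 5 were CKB (0.277), HIST1H2BM (0.281), SDC3 (0.288) and PRDM1 (0.296). Like DUSP6, all 5 were high in SW480, lower in SW620 and lowest in PEO4, an order that follows from how they were picked. CKB, a creatine kinase, averaged 52.5 CPM in SW480, 30.6 CPM in SW620, 4.01 CPM in untreated PEO4 and 3.18 CPM in treated PEO4. SDC3, a cell-surface proteoglycan, averaged 210.3, 96.0, 16.4 and 14.7 CPM in the same order. ETV5 stood at rank 56, SPRY4 at 78, DUSP4 at 189 and DUSP5 at 16634. Histone genes such as HIST1H2BM have near-identical copies, so its counts are uncertain.

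**Figure D4:**
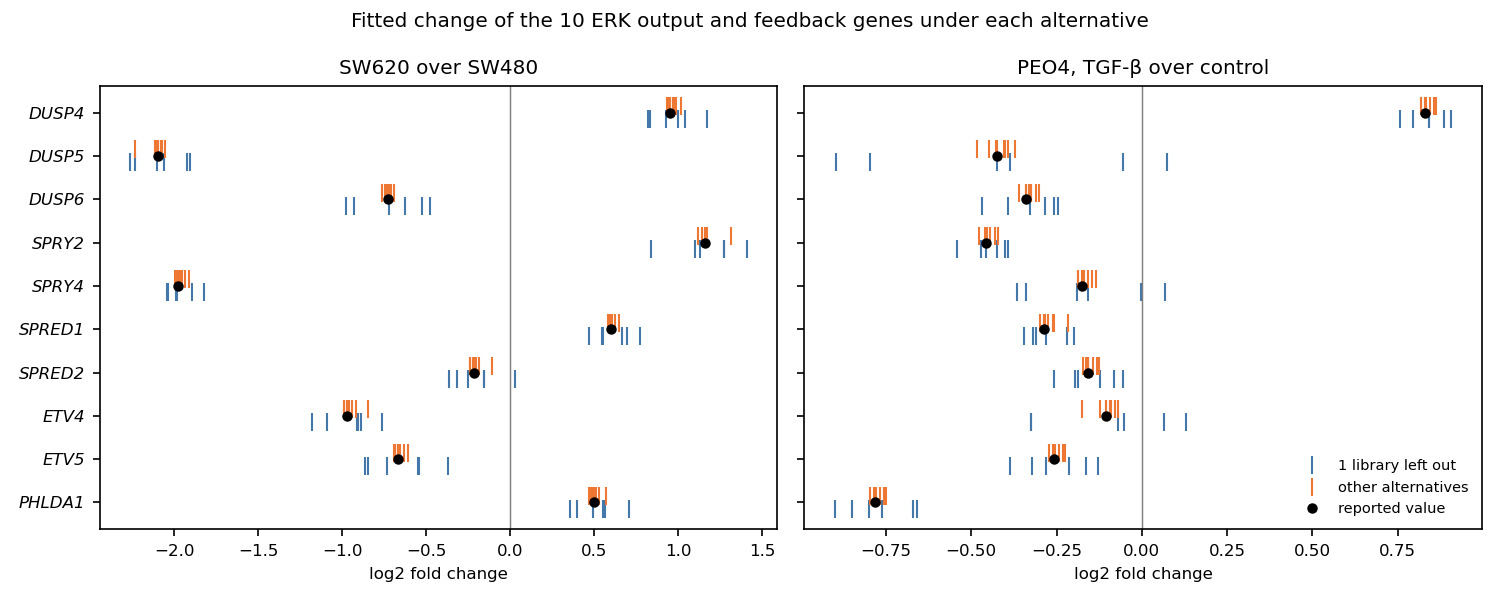
Fitted log2 fold change (horizontal axis, with a different range in each panel) of the 10 genes; black points are the reported values, blue ticks fits that left out 1 library and orange ticks the other alternatives. Between the SW lines only SPRED2 crosses 0, up to 0.03, and in PEO4 DUSP5, SPRY4 and ETV4 cross it when 1 library is left out.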

How the data were processed

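The authors deposited whole-number counts per gene for 57500 gene IDs, and 485 of them have no symbol. Per the submitters' processing notes the genome build was GRCh38, and the tools named are Trimmomatic 0.36, STAR 2.5.2b, featureCounts, Subread 1.5.2 and DESeq2. Annotation and strand setting are not given in the sources used here. The authors' deposited tables of differential expression hold a signal per library (the count divided by 1 size factor), a log2 fold change, and p-values before and after adjustment; only the log2 fold changes and adjusted p-values were used, for comparison.

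With edgeR 4.0.16 (R 4.3.3), the 6 libraries of each comparison were fitted separately (filterByExpr, TMM, glmQLFit and glmQLFTest, two-sided, Benjamini-Hochberg over all genes tested, threshold 0.05). The SE of a log2 fold change is its size divided by the root of the F statistic. CPM uses TMM-scaled totals of the 12 libraries. With 3 libraries a group, the smallest two-sided p of an exact permutation test is 0.1, and p-values here come from edgeR's model over all genes. Positions, exon lengths and overlaps come from GENCODE 29 (GRCh38), and the annotation behind the counts may differ. Alternatives were DESeq2 1.42.0, RLE and total-count scaling, 2 other count filters, the 12 libraries together in 1 model, a block on the replicate number and leaving out each library. Added after seeing the data were a GC correction (loess span 0.3) and a fit without both SW replicate 2 libraries. On simulated counts, edgeR recovered 18% of 2-fold and 91% of 4-fold changes in the SW design, over 20941 genes, and 72% and 97% in the PEO4 design, over 19064 genes. The simulation gave all genes 1 common dispersion and changed 100 genes at each fold. In the data 30.5% of genes were called between the SW lines, so these rates do not give the power for the 10 genes. Molecular identifiers are not mentioned in the labels, so low counts carry at least counting error. The 10 genes and the pathway lists were chosen with earlier results of these data known. Named genes are the 10, up to 3 called genes per pathway list with the largest change, BRAF, MAPK3 and EGFR, and the 5 genes most like DUSP6. Some genes that the rule names are not reported here.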

Additional observations from a re-analysis of the deposited data

How the results depend on the processing

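The count of the 10 genes called between the SW lines was 6 and ran from 5 to 9 over the alternatives that kept all libraries or left out both replicate 2 libraries, and from 4 to 7 when 1 library was left out. The share of all tested genes called ran from 18.1% to 50.9% and, with 1 library left out, from 19% to 33.3%. DUSP4, DUSP5, SPRY2 and SPRY4 kept direction and call in 15 of 15 alternatives. The count over all genes was 6385, with 10667 under the replicate block and 4253 (without SW480 replicate 1) to 7419 (without SW620 replicate 3) when 1 library was left out. In PEO4 the count of the 10 was 1, with 2 under DESeq2, 2 without the count filter, 0 with all 12 libraries in 1 model, 5 under the replicate block and 0 to 2 when 1 library was left out. The count over all genes was 431, with 923 under DESeq2, 1457 without the count filter, 165 with all 12 libraries in 1 model, 2102 under the replicate block, and 72 (without control replicate 2) to 1080 (without control replicate 1) when 1 library was left out. As shares of the genes tested these were, in the same order, 2.26%, 5.35%, 3.82%, 0.703%, 11%, and 0.366% to 5.38%. The cause of these shifts was not tested. With the GC correction 389 genes passed in PEO4, 188 higher and 201 lower, against 242 and 189.

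The replicate numbers were not taken to pair the libraries. Same-numbered libraries deviated from their group means with correlations across genes of 0.0159, 0.67 and 0.567 in the SW lines and 0.291, -0.14 and 0.481 in PEO4. Between libraries of different numbers the correlations ran from -0.63 to 0.267 in the SW lines and from -0.486 to 0.239 in PEO4. Whether the numbers mark shared handling was not tested. The block called 9 of the 10 genes between the SW lines, all but SPRED2, beside 50.9% of all genes. In PEO4 it called DUSP4, DUSP5, SPRY2, SPRED1 and PHLDA1, beside 11% of all genes.

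Fitted values that changed sign did so when 1 library was left out, where they ran from -0.37 to 0.026 for SPRED2 between the SW lines, and from -0.90 to 0.075 for DUSP5, -0.37 to 0.068 for SPRY4 and -0.32 to 0.13 for ETV4 in PEO4. None of these had passed. DUSP4 in PEO4 rests on 53 to 134 counts per library, the least depth among the 10 genes.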
